A study of Mus musculus with 6 samples.

Results

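The genes examined here encode the enzymes and transporters that carry glucose to lactate or into the mitochondrion: glucose transporters, glycolytic enzymes, lactate dehydrogenases and lactate transporters, and the pyruvate dehydrogenase complex with its kinases. They were chosen by name. Of the 31 genes, 28 had a probe set annotated to that gene alone, on 62 of the 45037 probe sets tested, and the probe set with the highest mean over the 6 arrays stood for each gene. Gapdh was represented by array control probe sets and is given from those. Gpi1 and Eno1 had no probe set carrying their symbol alone and were not analysed here.

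Messenger RNA came from keratinocytes, which form the epidermis, grown in primary culture in media with 100 nM sodium selenite. The mice were newborn and of C57BL6/FVB background in both groups. In the knockout, Gpx4, a selenoenzyme that reduces lipid hydroperoxides, was deleted by K14-cre, a recombinase whose promoter drives expression in basal cells of stratified epithelia, so cells of other kinds in the culture may retain the gene. Each array holds a pool of keratinocytes of 1 genotype from 1 litter, so litters A, B and C gave 3 control and 3 knockout arrays. The labels give the controls only as "control" and state neither their alleles nor the sex of the pooled mice.

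Glycolysis splits glucose into pyruvate in the cytosol and yields ATP and NADH. Lactate dehydrogenase turns pyruvate into lactate and restores NAD+, whereas the pyruvate dehydrogenase complex turns it into acetyl-CoA for the mitochondrion and is switched off by its kinases. Cultured keratinocytes are known to use glucose actively, and hypoxia-inducible factors and Myc are known activators of many of these genes.

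The intensities in the deposited table are linear and differ in overall brightness between arrays, so they were quantile-normalized, which gives all 6 arrays the same distribution. Means trimmed of 2% at each end lay between 72.8 and 114.3 before that step, and in litter C the control array was 1.56-fold brighter than the knockout array. Levels below are normalized intensities, listed in the order of litters A, B and C. A log2 change is knockout minus control on log2(intensity + 16) with its SE from limma, litter being a block, and understates the change of dim genes. Gpx4 itself fell in the knockout, from 497, 551 and 536 to 212, 260 and 216 (log2 change -1.15 ± 0.091, limma adjusted p = 0.0206), and did not pass without litter A (0.153) or litter B (0.278). The keratinocyte keratins Krt5 and Krt14 were between 6278 and 7049 on every array, and Krt10, a keratin of differentiating suprabasal cells, fell by 1.42 ± 0.084 on the log2 scale (limma adjusted p = 0.00922). Of the other keratinocyte markers, Trp63 and Krt1 had log2 changes of -0.43 ± 0.08 and -1.21 ± 0.22 (limma adjusted p = 0.0817 and 0.0836). Itga6 and Cdh1 had log2 changes of 0.09 ± 0.13 and 0.16 ± 0.07 (limma adjusted p = 0.814 and 0.383).

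None of the 28 genes passed a limma adjusted p of 0.05 over all probe sets, where 0.42% of probe sets passed (71 or 0.158% higher and 118 or 0.262% lower; 3 and 32 with the intensities scaled as deposited). An unadjusted p under 0.05 was reached by 8 of the 28, against 14.6% of all probe sets (7.06% higher and 7.58% lower): Slc2a3, Hk2, Pfkfb3, Pgam1 and Pdha1 with higher values in the knockout, and Pfkp, Aldoc and Ldhb with lower ones. The median log2 change of the 28 was -0.03, beside 0.0018 over all probe sets, and the range ran from -1.03 for Aldoc to 2.10 for Slc2a3. The knockout and control arrays did not overlap for 7 of the 28, with 5 higher and 2 lower, against 18.2% of all probe sets (8.79% higher and 9.43% lower). Without litter C, 5 of the 28 passed (Slc2a3, Hk2, Pfkfb3 and Pgam1 higher, Aldoc lower), against 6.16% of all probe sets (3.01% higher and 3.15% lower). Without litter A or litter B, none passed by limma and 6 of the 28 reached an unadjusted p under 0.05 in each case, against 9.2% of all probe sets without litter A and 8.22% without litter B.

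**Figure D1:**
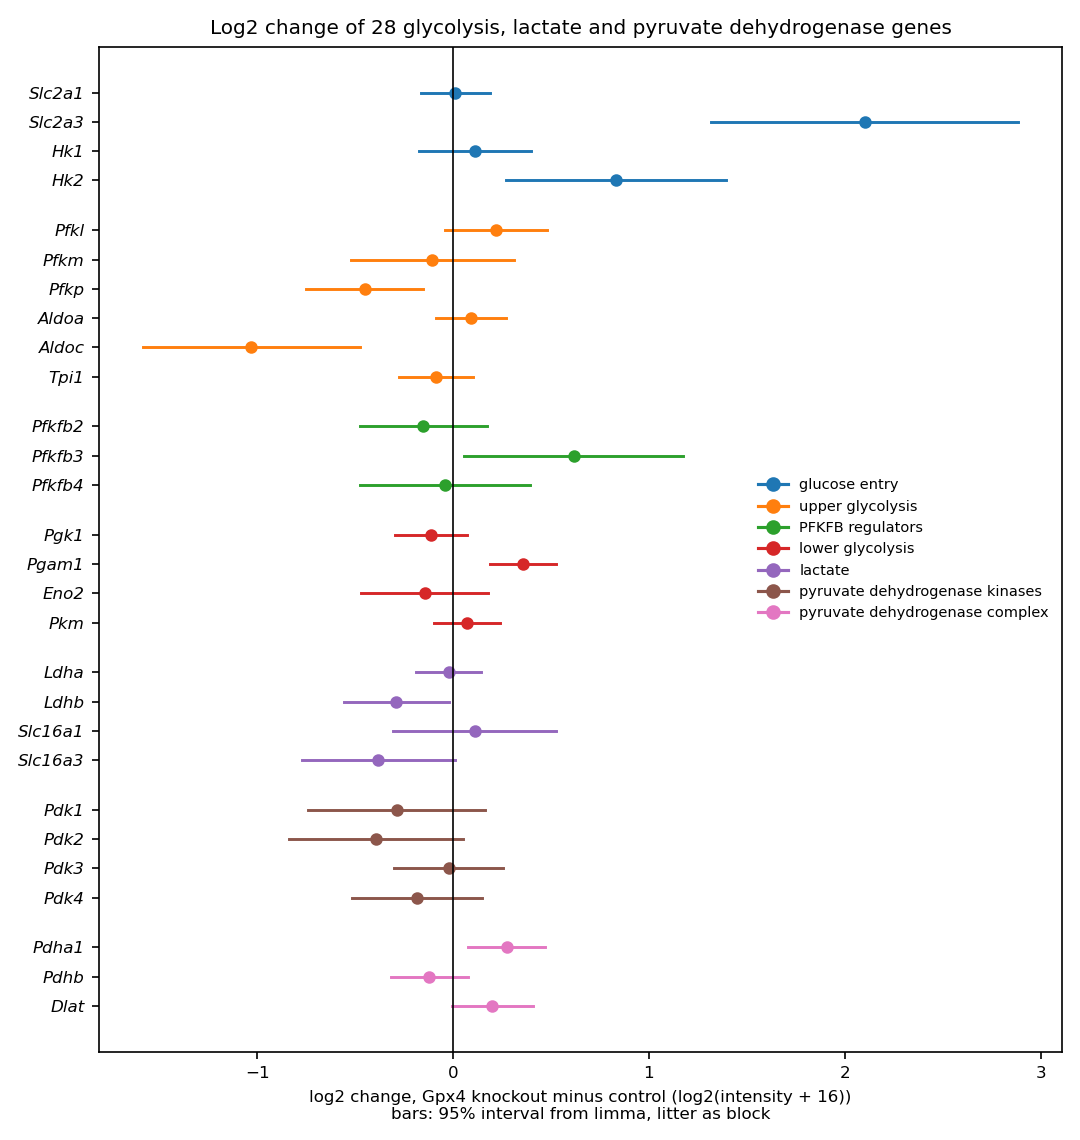
Log2 change of each of the 28 genes (x axis, log2 scale, knockout minus control; points, limma estimate; bars, 95% interval; n = 3 litters), in order of role. Slc2a3 lies farthest to the right at 2.10 and Aldoc farthest to the left at -1.03, whereas 16 of the 28 lie within 0.2 of zero.

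Promoter sequences were available from RefSeq (GRCm38.p6) for 27 of the 28 genes, Slc2a3 being the exception, with 41 start sites in all. The letters ACGTG, a form of the core of sites bound by hypoxia-inducible factors, were searched on both strands in the 250 bases before each start. Other forms of that core were not searched. The letters ACGTG also form part of CACGTG, an E-box that Myc can bind, so the motifs overlap. ACGTG was found before 19 of the 41 starts, in 15 of the 27 genes, and before 16.6% of all 32851 starts in the table. CACGTG was found before 6 of the 41 starts and before 6.02% of all. A match describes the letters only. The sequences of Hk2, Pgam1 and Ldha are shown because all 3 hold the motif while their expression patterns differ: Hk2 differed within litters A and B but little within litter C, Pgam1 differed alike in all 3 litters, and Ldha scarcely differed. Their positions are chr6:82774455-82774704 on the minus strand, chr19:41911621-41911870 on the plus strand and chr7:46845554-46845803 on the plus strand. Each reads 5′ to 3′ and ends at the base before the start, with every match to ACGTG on either strand in capitals.
Hk2: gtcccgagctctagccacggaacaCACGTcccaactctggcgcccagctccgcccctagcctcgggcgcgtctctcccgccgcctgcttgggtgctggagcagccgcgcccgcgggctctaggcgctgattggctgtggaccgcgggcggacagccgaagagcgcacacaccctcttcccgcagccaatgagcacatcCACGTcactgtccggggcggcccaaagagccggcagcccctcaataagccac
Pgam1: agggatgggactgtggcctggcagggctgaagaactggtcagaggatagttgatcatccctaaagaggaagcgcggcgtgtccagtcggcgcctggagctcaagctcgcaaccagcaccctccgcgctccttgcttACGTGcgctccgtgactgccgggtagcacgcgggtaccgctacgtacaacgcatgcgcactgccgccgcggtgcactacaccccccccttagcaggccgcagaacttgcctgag
Ldha: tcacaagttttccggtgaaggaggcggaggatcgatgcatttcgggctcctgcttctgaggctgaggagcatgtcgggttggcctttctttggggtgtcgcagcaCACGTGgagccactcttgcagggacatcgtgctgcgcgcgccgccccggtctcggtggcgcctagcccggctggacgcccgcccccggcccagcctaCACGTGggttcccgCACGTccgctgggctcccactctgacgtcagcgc
In Hk2 the matches began 226 and 52 bases before the start, and the printed strand reads CACGT at both. Pgam1 held 1 match that began 114 bases before the start. Ldha held CACGTG at 145 and 48 bases before the start and CACGT at 34 bases before it. The table lists another start of Ldha, in whose 250 bases (chr7:46846832-46847081, plus strand) there was no match to either motif.

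Glucose entry was measured on the transporters Slc2a1 (GLUT1) and Slc2a3 (GLUT3) and the hexokinases Hk1 and Hk2, which trap glucose in the cell by phosphorylation. Slc2a1, the main glucose transporter of keratinocytes, gave 1597, 1459 and 1181 in controls and 1650, 1395 and 1225 in knockouts. The groups overlapped, litter C was lowest in both, and the log2 change was 0.01 ± 0.07 (95% interval -0.17 to 0.19). Its sign was negative with the intensities scaled as deposited, with arrays shifted to the same median and on the mean of its probe sets.

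Slc2a3, a transporter with high affinity for glucose that is best known from neurons and blood cells, was near the dim end of the arrays in controls, at 8.43, 10.2 and 20.6. In knockouts it gave 34.7, 135 and 226.4. Every knockout array was above every control array, and the difference was smallest in litter A, with log2 differences of 1.05, 2.53 and 2.73. The log2 change of 2.10 ± 0.33 did not pass (limma adjusted p = 0.0667), and over the alternatives it lay between 1.11 and 2.97 with adjusted p from 0.000417 to 0.502. All 4 of its probe sets had positive log2 changes, from 0.48 to 2.10. The array maker's suffix on the brightest of them marks a probe set that matches more than 1 transcript, while the annotation names Slc2a3 alone.

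Hk1 ranged from 135.1 to 186.1 over the 6 arrays with a log2 change of 0.11 ± 0.12, and it turned negative as deposited, with arrays shifted to the same median and on the mean of its probe sets. Hk2, the inducible hexokinase, gave 108.1, 115.2 and 311.7 in controls and 266.8, 294 and 326.6 in knockouts. The control of litter C stood with the knockouts, and the control arrays of litters A and B lay below all other arrays. The log2 differences were 1.19, 1.24 and 0.06, and the log2 change of 0.83 ± 0.23 did not pass (limma adjusted p = 0.186). Without litter C it was 1.21 ± 0.10 and passed (limma adjusted p = 0.00179), and over the alternatives its adjusted p ran up to 0.64.

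In upper glycolysis, the phosphofructokinases Pfkl, Pfkm and Pfkp catalyse the committed step, the aldolases Aldoa and Aldoc cleave the sugar, and Tpi1 interconverts its products. Pfkl gave 254, 304.9 and 241.9 in controls and 338.8, 306 and 292.6 in knockouts. Pfkp, the platelet-type subunit, gave 400.3, 433.6 and 439.7 in controls and 351, 318.6 and 255.3 in knockouts. The Pfkl groups overlapped, whereas the Pfkp knockouts all lay below the controls, with the gap widest in litter C. Log2 changes were 0.22 ± 0.11 for Pfkl, -0.45 ± 0.12 for Pfkp and -0.11 ± 0.17 for the muscle-type Pfkm, with limma adjusted p of 0.416, 0.18 and 0.837. The other probe sets of Pfkp gave 0.02 and -0.07, so its difference was seen on 1 of its 3 probe sets.

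Aldoc, the brain-type aldolase, gave 114.8, 133.5 and 60.5 in controls and 38.7, 37.6 and 44 in knockouts. All knockouts were below all controls, and the control of litter C was the closest to them. The log2 change was -1.03 ± 0.23 (limma adjusted p = 0.126), with differences of -1.26, -1.48 and -0.35 in the litters. It passed without litter C, at -1.37 ± 0.14 (limma adjusted p = 0.00414), and its adjusted p over the alternatives ran from 0.00414 to 0.568.

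Aldoa, the main aldolase of most tissues, gave 1693, 1838 and 1887 in controls and 1920, 1918 and 1932 in knockouts. All knockouts lay above all controls, the closest pair being knockout B and control C. The log2 change was 0.09 ± 0.07, with a 95% interval of -0.08 to 0.27 and a negative value (-0.05) as deposited. Its 5 probe sets gave 0.09 to 0.40, and the groups overlapped on some of them. These probe sets were read on the same arrays and are not independent. Tpi1 ranged from 1584 to 1838 with a log2 change of -0.09 ± 0.08.

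The bifunctional enzymes Pfkfb2, Pfkfb3 and Pfkfb4 set the level of the sugar bisphosphate that activates phosphofructokinase. Pfkfb3, whose activity favours glycolysis, gave 18.3, 16.5 and 26.2 in controls and 51.9, 43.3 and 26 in knockouts. On this probe set the litter C pair was level, and in litters A and B the knockouts were higher by 0.99 and 0.87 on the log2 scale. On the other, dimmer probe set the log2 differences were 0.66, 1.22 and 0.28, and all knockouts lay above all controls. The log2 change was 0.62 ± 0.23 on the reported probe set and 0.72 on the other (limma adjusted p = 0.301 and 0.207). Without litter C the reported probe set gave 0.93 ± 0.19 and passed (limma adjusted p = 0.0381; 0.0381 to 0.723 over the alternatives).

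Pfkfb2 gave 63.5, 61.1 and 41.4 in controls and 55.4, 55.6 and 34.2 in knockouts, a log2 change of -0.15 ± 0.13. Pfkfb4 ranged from 28.8 to 71 with a log2 change of -0.04 ± 0.18, which was 0.14 without litter C. The groups overlapped for both genes.

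**Figure D2:**
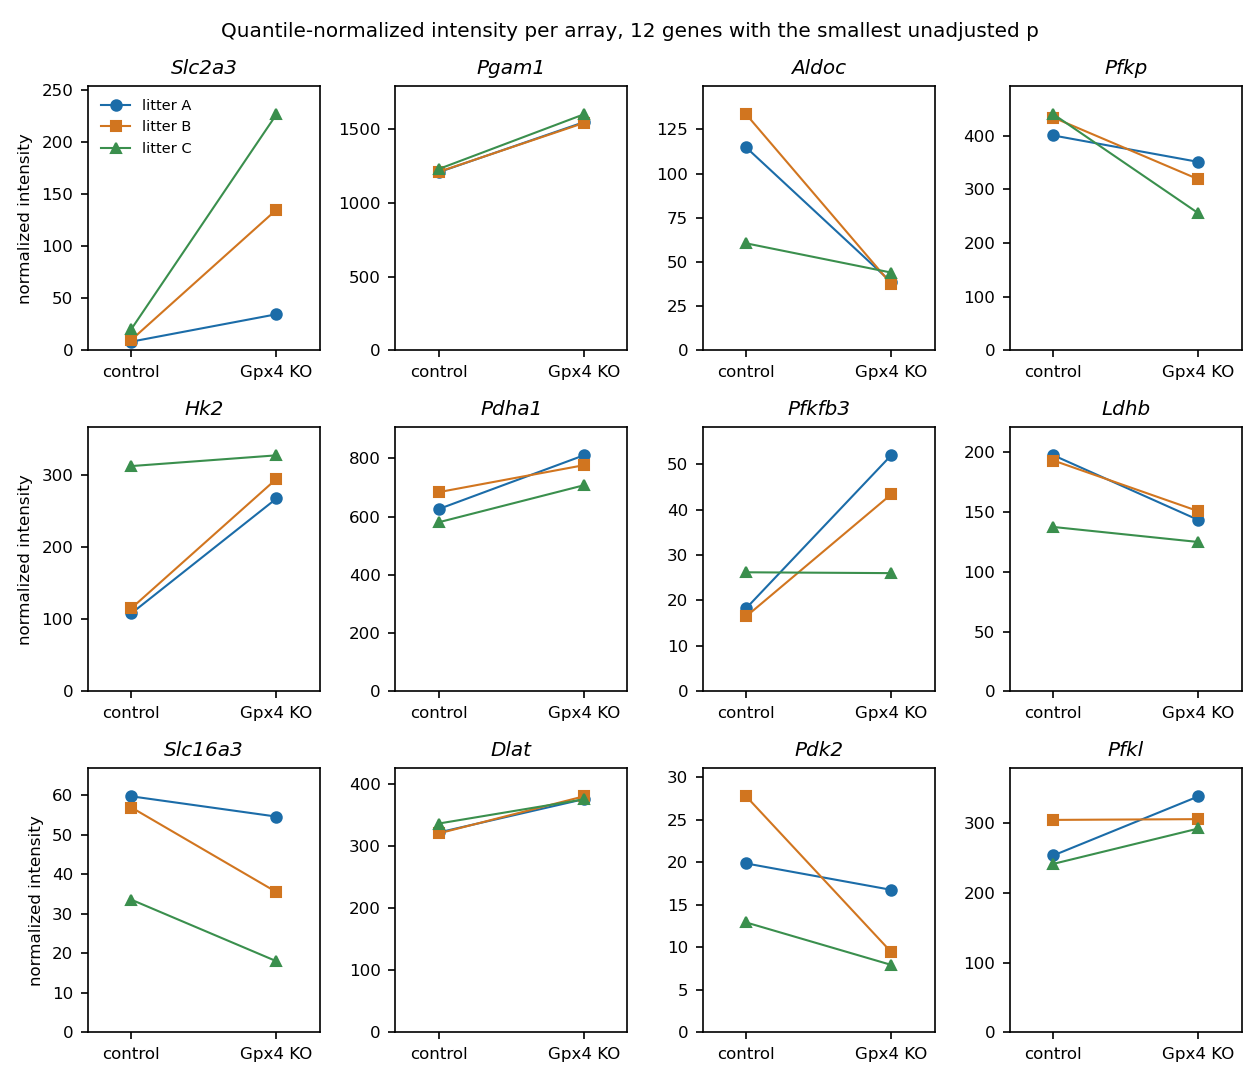
Normalized intensity (y axis, linear, from zero) of the 12 genes with the smallest unadjusted p, in control and knockout arrays (x axis); each line joins the 2 arrays of a litter. The lines of Pgam1 and Dlat run almost in parallel, whereas the litter C line of Hk2 and Pfkfb3 is nearly flat.

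Lower glycolysis turns triose phosphate into pyruvate through Gapdh, phosphoglycerate kinase (Pgk1), phosphoglycerate mutase (Pgam1), enolase and pyruvate kinase (Pkm). Pgam1 gave 1209, 1211 and 1230 in controls and 1548, 1542 and 1601 in knockouts. Each group was tight and the groups stood apart, with log2 differences of 0.35, 0.34 and 0.38. Its log2 change of 0.36 ± 0.07, or 1.28-fold, did not pass over all probe sets (limma adjusted p = 0.0993). It passed without litter C (0.35, limma adjusted p = 0.0384) and without the 40% dimmest probe sets (0.0391), and its adjusted p ran up to 0.859 over the alternatives.

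Pgk1 gave 2324, 2527 and 2434 in controls and 2336, 2294 and 2106 in knockouts, a log2 change of -0.11 ± 0.08 with overlapping groups. Pkm ranged from 1894 to 2137 over the 6 arrays, with a log2 change of 0.07 ± 0.07 that was -0.08 as deposited and -0.02 with arrays shifted to the same median. The neuronal enolase Eno2 was under 10 on all arrays. Its log2 change of -0.15 ± 0.13 describes values near the bottom of the scale.

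Gapdh, which oxidizes triose phosphate and makes NADH, was read on 3 array control probe sets that lie toward the 3′ end, the middle and the 5′ end of the transcript. On the 3′ probe set it gave 3939, 3992 and 4346 in controls and 4358, 4460 and 4614 in knockouts once the control probe sets were kept in the normalization. The log2 changes were 0.13 ± 0.07, 0.14 ± 0.07 and 0.06 ± 0.06 from the 3′ end to the 5′ end, with limma adjusted p of 0.429, 0.386 and 0.735. The ratio of the 3′ to the 5′ Gapdh intensity as deposited, a measure of RNA integrity, was 0.675 to 0.716 in controls and 0.70 to 0.74 in knockouts.

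Lactate formation was measured on the dehydrogenase subunits Ldha and Ldhb and the proton-linked transporters Slc16a1 (MCT1) and Slc16a3 (MCT4). Ldha, which favours lactate formation, gave 2800, 2951 and 2939 in controls and 2832, 2929 and 2795 in knockouts. Controls and knockouts covered the same range, and the log2 change was -0.02 ± 0.07 with a 95% interval of -0.19 to 0.14. It was 0.02 with arrays scaled to the same trimmed mean and 0.0027 without litter C.

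Ldhb, the heart-type subunit, gave 197.6, 193.2 and 137.6 in controls and 143.4, 150.8 and 125 in knockouts. The knockout was lower in each litter, by 0.42, 0.33 and 0.12 on the log2 scale, but the control of litter C lay among the knockouts. The log2 change was -0.29 ± 0.11 (limma adjusted p = 0.307), and all 4 probe sets were negative, from -0.49 to -0.29.

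Slc16a3, the exporter of strongly glycolytic cells, gave 59.8, 56.9 and 33.6 in controls and 54.6, 35.5 and 18 in knockouts. The groups overlapped, the knockout was lower in each litter, and the log2 change was -0.38 ± 0.16 (limma adjusted p = 0.35). Slc16a1 ranged from 183.8 to 374.6, its highest value being the control of litter C. Its log2 differences were 0.29, 0.45 and -0.41 and the log2 change was 0.11 ± 0.17, so its direction differed between litters.

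The kinases Pdk1 to Pdk4 phosphorylate and inactivate pyruvate dehydrogenase. None of the 4 had a positive log2 change, and none passed. Pdk1, a known target of hypoxia-inducible factors, gave 222, 200.2 and 158.7 in controls and 124.5, 154.8 and 189.6 in knockouts. On this probe set the groups overlapped and litter C ran opposite to the others, with log2 differences of -0.76, -0.34 and 0.24. The log2 change was -0.29 ± 0.19 (limma adjusted p = 0.545), and the 4 probe sets of Pdk1 gave -0.47 to -0.29. The one at -0.47 was lower in every litter (-0.52, -0.48 and -0.41), with all knockouts below all controls (limma adjusted p = 0.195). The remaining probe sets were positive in litter C, at 0.14 and 0.03.

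Pdk2 was dim, at 19.9, 27.7 and 12.9 in controls and 16.8, 9.45 and 7.93 in knockouts, with a log2 change of -0.39 ± 0.18 (limma adjusted p = 0.39). Pdk3 gave 92, 116.4 and 101.6 in controls and 96, 103.7 and 103.7 in knockouts, a log2 change of -0.02 ± 0.12. Pdk4, the kinase linked to fatty acid use, was under 16 on all arrays. The groups of these 3 genes overlapped.

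The pyruvate dehydrogenase complex was measured on its E1 subunits Pdha1 and Pdhb and its E2 subunit Dlat. Pdha1, the catalytic alpha subunit, gave 626.3, 684.3 and 580.9 in controls and 810.6, 776.8 and 707.8 in knockouts. Dlat, the acetyltransferase, gave 322.1, 320.6 and 336.5 in controls and 375.8, 380.3 and 375.5 in knockouts. The knockouts of both genes lay above all controls. Neither passed: the log2 change was 0.27 ± 0.08 for Pdha1 (limma adjusted p = 0.208) and 0.20 ± 0.09 for Dlat (limma adjusted p = 0.355).

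Pdhb, the beta subunit and partner of Pdha1, gave 781.4, 766.5 and 688.9 in controls and 668.3, 734.8 and 650.3 in knockouts. Its groups overlapped, and the log2 change of -0.12 ± 0.08 had the opposite sign to that of Pdha1. The other probe set of Pdhb, with means of 25.2 in controls and 26.3 in knockouts, gave 0.04 ± 0.17. The other probe set of Pdha1 gave 0.18 ± 0.13 with overlapping groups and was negative in litter C (-0.18). The difference between the subunits was not tested.

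Pgk1, Pdk3 and Pdha1 lie on the X chromosome, and sex-linked transcripts differed between the groups in every litter. Xist, the RNA made by the inactive X chromosome, rose from 502, 389 and 536 to 1229, 1214 and 1260 (log2 change 1.36 ± 0.10, limma adjusted p = 0.0194). The Y-linked Eif2s3y fell from 155.5, 178.4 and 185.3 to between 0.667 and 4.62 (limma adjusted p = 0.00664). The sex make-up of the pools and the genotype cannot be told apart for these 3 genes or for any other.

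**Figure D3:**
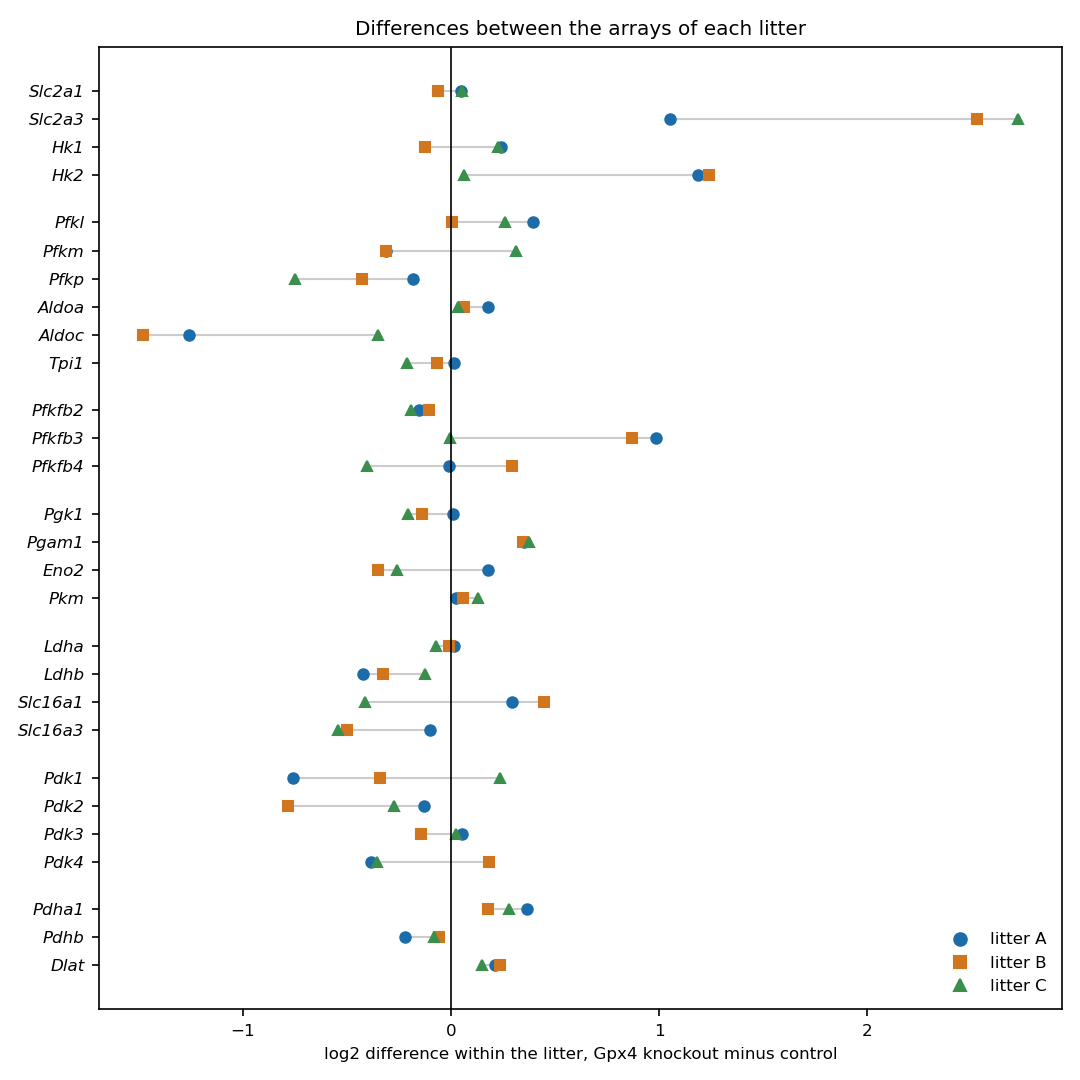
Log2 difference between the knockout and the control array of each litter (x axis) for the 28 genes (y axis); circles, squares and triangles are litters A, B and C. The sign was the same in all litters for 8 genes in the higher direction and 7 in the lower, and mixed for 13. These counts include differences near zero, such as 0.0049 for Pfkl in litter B, and the share over all probe sets was not computed. On the probe sets shown, litter C stands apart from the others for Hk2, Aldoc, Pfkfb3, Slc16a1 and Pfkm.

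The control of litter C departed from the other controls for several of these genes. On the log2 scale it lay 1.36 above the mean of the other controls for Hk2, 0.92 above for Slc16a1 and 0.81 above for Pfkfb4, and the gap was -0.87 for Aldoc and -0.68 for Pfkm. The summed level of the 9 fibroblast markers was 425, 406 and 1244 in controls and 1395, 1387 and 1729 in knockouts. Vim, an intermediate filament gene of mesenchymal cells, made up 48.3% to 67.9% of these sums, and without it they were 199.6, 210.1 and 628 in controls and 447, 551 and 691 in knockouts, so the groups then overlapped. Control C was the highest control for 8 of the 9, Dcn being the exception. The log2 change was positive for 7 of the 9 and none passed (lowest limma adjusted p 0.0682, for Vim), with -0.06 for Dcn and -0.29 for Lum. Within litter C, Col3a1 and Pdgfrb were also lower in the knockout (-0.50 and -0.24). Without litter C, 5 of the 9 fibroblast markers passed, all higher, against 3.01% of all probe sets. They were Vim, Col1a1, Col1a2, Col6a1 and Pdgfra, with limma adjusted p from 0.000232 to 0.0348. The 7 keratinocyte markers summed to 19423 to 21381 in controls and 19300 to 20246 in knockouts. Krt5 and Krt14, each between 6278 and 7049 on every array, made up most of these sums. The sums therefore say little about the dimmer markers, such as Krt10 with means of 696 in controls and 250 in knockouts. Without litter C, 3 of the 7 keratinocyte markers passed as lower (Trp63, Krt1 and Krt10), against 3.15% of all probe sets. The 7 melanocyte markers summed to 4562 to 4723 in controls and 6326 to 6951 in knockouts, and of them Tyrp1 and Mlana rose (log2 change 0.69 ± 0.078 and 1.11 ± 0.14, limma adjusted p = 0.038 and 0.0429). Without litter C, 5 of the 7 melanocyte markers passed as higher, against 3.01% of all probe sets. The 9 skeletal muscle markers summed to 128.9 to 158 and 145.6 to 211.8, the 6 immune markers to 60.9 to 86.2 and 70.6 to 132.8, the 5 endothelial markers to 23.3 to 36.7 and 27.9 to 41.4, and the 2 red cell markers to 2.4 to 5.28 and 2.38 to 8.87. Of the 9 skeletal muscle markers none passed with all litters. Without litter C 1 passed, Des at 1.04 (limma adjusted p = 0.0338), against 3.01% of all probe sets as higher. Within litter C the log2 difference of Des was -0.12. Myog, at most 9.1, was the 1 muscle marker with all knockouts above all controls. None of the immune or endothelial markers passed, and the groups overlapped for all 5 endothelial markers and for 4 of the 6 immune ones. The other immune markers, the antigen presentation gene Cd74 (13.45, 7.38 and 19.95 in controls; 24.1, 25.8 and 33.45 in knockouts) and the Langerhans cell gene Cd207 (at most 2.2 in controls; 2.62, 9.35 and 8.23 in knockouts), had every knockout above every control. The leukocyte gene Ptprc reached at most 15.7, the myeloid gene Lyz2 43.05 and the endothelial gene Pecam1 6.6. The part of other cell types in the values of the glycolytic genes was not tested, and in pooled cells a smaller number of cells cannot be told apart from less RNA per cell.

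**Figure D4:**
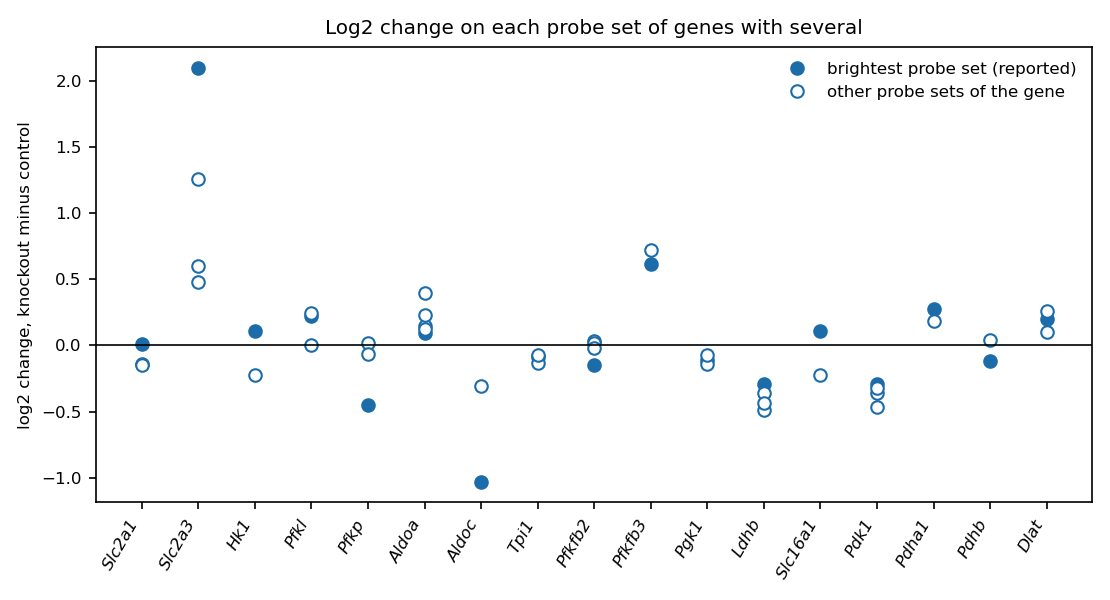
Log2 change (y axis, knockout minus control) on every probe set of the 17 genes that have more than 1; filled points are the brightest probe set, which the text reports, and open points the others. Under quantile normalization, all probe sets of Slc2a3, Pfkl, Aldoa, Pfkfb3, Pdha1 and Dlat lie above zero and all of Aldoc, Tpi1, Pgk1, Ldhb and Pdk1 below it, and Pfkp is apart on 1 of 3.

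Neighbouring pathways were read on 107 further genes, of which 99 had a probe set of their own. Over all probe sets 1 of the 99 fell, none rose and the median log2 change was -0.04. The gene that fell was Txnip, an arrestin that promotes removal of glucose transporters from the cell surface and is itself induced by glucose. It gave 373.8, 326.3 and 378.8 in controls and 176.1, 144.9 and 164.6 in knockouts, so the groups stood far apart. Its log2 change was -1.08 ± 0.092 (limma adjusted p = 0.0224; 0.00225 to 0.386 over the alternatives). It did not pass as deposited (0.13), without the intensity trend (0.1), without litter A (0.174) or without litter B (0.386).

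Txnip was the 1 gene to pass among the 25 regulators measured. Myc, a transcription factor of cell growth, gave 462, 395.9 and 620.6 in controls and 875.6, 789.5 and 825.4 in knockouts, a log2 change of 0.76 ± 0.13 (limma adjusted p = 0.0757). Hif1a, the oxygen-regulated subunit of the hypoxia-inducible factor, gave 1544, 1684 and 1366 in controls and 1031, 1121 and 1080 in knockouts, a log2 change of -0.50 ± 0.08 (limma adjusted p = 0.0772). The groups did not overlap for either gene, and their log2 changes had opposite signs. Without litter C, 2 of the 25 passed as higher and 3 as lower, against 3.01% and 3.15% of all probe sets. The higher ones were Myc at 0.93 and Ppard at 0.97 (limma adjusted p = 0.0019 and 0.011). The lower ones were Hif1a at -0.58, Epas1 at -1.66 and Txnip at -1.05 (limma adjusted p = 0.0072, 0.0014 and 0.0023). With all litters, Epas1 was -1.17 ± 0.30 and Ppard 0.70 ± 0.19 (limma adjusted p = 0.156 and 0.182), so neither passed. Within litter C the log2 differences were -0.20 for Epas1 and 0.17 for Ppard. Control C gave 65.3 for Epas1, where the other controls gave 253 and 262. For the genes whose promoters are printed above, the log2 change was 0.83 for Hk2, 0.36 for Pgam1 and -0.02 for Ldha.

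Among 21 other isozymes and transporters none passed. Slc16a7 (MCT2), a monocarboxylate transporter with high affinity for pyruvate and lactate, gave 55.7, 57.9 and 49.4 in controls and 15.3, 20.1 and 14.1 in knockouts. These values do not overlap, and the log2 change was -1.12 ± 0.15 (limma adjusted p = 0.0514; 0.0036 to 0.447 over the alternatives, 0.0193 without litter C). The fructose transporter Slc2a5 had a log2 change of -0.75 ± 0.21 and the insulin-responsive glucose transporter Slc2a4 one of -0.62 ± 0.18 (limma adjusted p = 0.185 and 0.194). Both passed without litter C, at -1.05 and -0.82 (limma adjusted p = 0.00814 and 0.0398). With Slc16a7 they were the 3 of the 21 that did so, all lower, against 3.15% of all probe sets.

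None of the 15 other pyruvate genes passed. The malic enzyme Me1, which makes NADPH, had a log2 change of -0.36 ± 0.09, the alanine transaminase Gpt one of -0.71 ± 0.20 and Mpc1, a subunit of the mitochondrial pyruvate carrier, one of -0.31 ± 0.09. Their knockouts lay below all controls, with limma adjusted p of 0.146, 0.191 and 0.192. Without litter C, Gpt was the 1 gene of the 15 to pass (-0.96, limma adjusted p = 0.0244), against 6.16% of all probe sets.

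Of 8 pentose phosphate genes none passed, and the median log2 change was 0.0035. Pgls, the lactonase of that pathway, gave 521.5, 697.7 and 520 in controls and 419.6, 461.7 and 330.4 in knockouts (-0.50 ± 0.10, limma adjusted p = 0.097; 0.0453 without litter C). Tigar, which lowers the activator of phosphofructokinase, had a log2 change of 0.32 ± 0.14, and the transaldolase Taldo1 one of 0.13 ± 0.08.

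Of 15 genes of glycogen and the hexose side branches none passed. Pygl, the liver-type glycogen phosphorylase, gave 99.1, 114.7 and 76.5 in controls and 42.5, 48.3 and 48.3 in knockouts, a log2 change of -0.84 ± 0.15 (limma adjusted p = 0.0841; 0.0103 without litter C). Of the glycerol phosphate dehydrogenases, which pass electrons from cytosolic NADH, Gpd1l had a log2 change of -0.60 ± 0.16 and the mitochondrial Gpd2 one of 0.31 ± 0.08. Without litter C, Gpd1l passed at -0.73 (limma adjusted p = 0.042) and Gpd2 did not (0.0786). In that setting 1 of the 15 passed as higher and 2 as lower, against 3.01% and 3.15% of all probe sets.

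Of 15 genes of the tricarboxylic acid cycle none passed, 11 had a negative log2 change and the median was -0.12. Sdhd (-0.26 ± 0.10), Ogdh (-0.28 ± 0.11) and Sdhb (-0.21 ± 0.08) had the smallest p, with limma adjusted p between 0.285 and 0.323. The knockouts lay below all controls for 6 of the 15, where 9.43% of all probe sets did. Sdhb, the iron-sulphur subunit of succinate dehydrogenase, gave 1014, 988 and 1073 in controls and 826, 943 and 883 in knockouts.

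**Figure D5:**
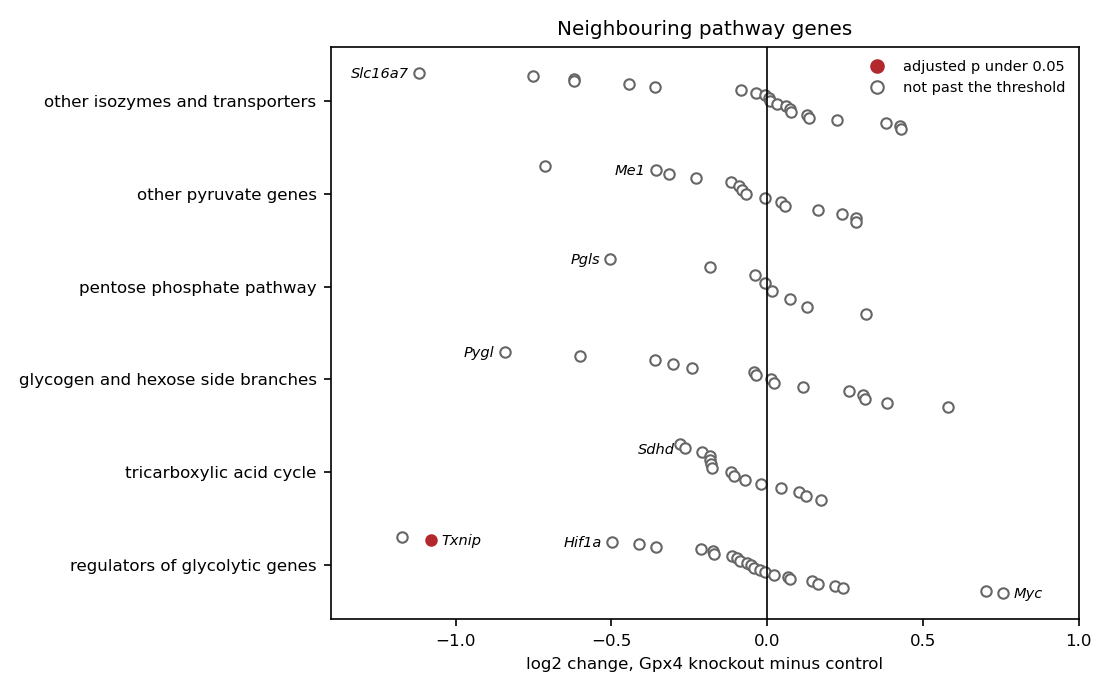
Log2 change (x axis, knockout minus control) of the 99 neighbouring pathway genes by list (y axis; points are offset vertically for clarity); filled points passed an adjusted p of 0.05 and open points did not. Txnip at -1.08 is the filled point, and the gene with the smallest p of each list is labelled, with Myc and Hif1a.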

How the data were processed

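Total RNA of 6 keratinocyte pools was extracted with Trizol and labelled with biotin for 1-colour arrays, per the labels' protocols. The deposited values are linear intensities, 1 for each probe set on each array. The labels do not state how the authors corrected background, summarized probes or scaled arrays. The number of arrays limits precision.

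The 64 control probe sets were left out of the fit. The other 45037 were quantile-normalized and tested as log2(intensity + 16) with limma 3.58.1 in R 4.3.3 (eBayes with an intensity trend, litter as a block, two-sided, Benjamini-Hochberg adjustment over all probe sets, threshold 0.05). The design compares knockout and control pools of 1 litter, and the labels name each array's litter. Residuals of same-litter arrays correlated with r = 0.17, 0.047 and 0.21. The steps were tested on simulated data that held no litter effect, no brightness difference between arrays and no departing array, so that test does not cover these features.

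Symbols came from the platform annotation, updated through gene IDs of the GRCm38.p6 RefSeq table: 34945 probe sets had 1 gene, 932 several and 9160 none listed. Genes and lists were chosen with earlier results of these data known. Values of all arrays are printed for the 12 genes with the smallest p, the brightest gene of each role and X-linked genes, and up to 3 genes are named per further list. Ppard and Epas1 were named in addition, as regulators that passed without litter C. Alternatives covered scaling, pseudocount, dim probe sets, block, trend, probe sets per gene and each litter. Values for Gapdh, and the alternatives for Gpx4, Txnip and Slc16a7, were added after the data were seen.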

Additional observations from a re-analysis of the deposited data

How the results depend on the processing

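Of 334 values of the 28 genes under the alternatives, 304 kept their direction and their side of the threshold, 11 passed where they had not and 19 changed sign, the 19 being in 8 genes that passed under none. As deposited, the log2 change was -0.050 for Aldoa, -0.086 for Hk1, -0.076 for Pkm, -0.092 for Slc16a1 and -0.15 for Slc2a1. With arrays shifted to the same median it was -0.027 for Hk1, -0.016 for Pkm, -0.032 for Slc16a1 and -0.095 for Slc2a1. With arrays scaled to the same trimmed mean it was 0.024 for Ldha. On the mean of the probe sets of a gene it was -0.055 for Hk1, -0.056 for Slc16a1 and -0.090 for Slc2a1. With a litter left out it ranged from -0.0087 to 0.049 for Slc2a1 (negative without A or C), from -0.059 to 0.37 for Slc16a1 (negative without B), from -0.060 to 0.039 for Pdk3 (positive without B), from -0.042 to 0.0027 for Ldha and from -0.21 to 0.14 for Pfkfb4 (both positive without C).

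The count of passing genes was 2 with arrays shifted to the same median (Slc2a3 and Aldoc), 1 with a pseudocount of 1 (Slc2a3), 3 without the 40% dimmest probe sets (Slc2a3, Pgam1 and Aldoc) and 0 to 5 with a litter left out, 5 being without litter C. The median log2 change of the 28 was -0.19 as deposited and -0.13 with arrays shifted to the same median, where the medians over all probe sets were -0.07 and -0.0071. Over all probe sets 189 passed. The count was 35 as deposited, 710 with arrays shifted to the same median, 290 with arrays scaled to the same trimmed mean, 601 with a pseudocount of 1, 59 with one of 64, 1130 without the dimmest probe sets and 6 without the intensity trend. With a litter left out limma called 0 (without litter B, with 3700 at an unadjusted p under 0.05) to 2773 (without litter C). The cause of these differences was not tested. Without the dimmest probe sets fewer were tested, and the SE of the remaining ones changed as well. Without the replicate block 135 passed and none of the 28 genes did, so the block changed no call among them. Gpx4 did not pass as deposited (-1.34, adjusted p = 0.122), without the intensity trend (0.1), without litter A (0.153) or litter B (0.278), or on the mean of its probe sets (0.0688).

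No detection call per probe set was used here, and Eno2 and Pdk4, under 16 on all arrays, have values that say little about direction. The labels call the arrays biological replicates, and with 3 litters the 95% interval ran from -0.19 to 0.14 for the bright Ldha and from 1.32 to 2.89 for the dim Slc2a3.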
